A study of Homo sapiens with 15 samples.

Results

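The genes described here are 58 protein-coding genes of human chromosome 18, listed by name from USP14 near the tip of the short arm to CYB5A far out on the long arm. They are 58 of the 60675 genes in the count table and 58 of the 269 protein-coding genes that the annotation places on this chromosome, with 29 on the short arm and 29 on the long arm. They were selected on measured values: in an earlier look at these same counts, chromosome 18 genes had been lower in the 6CD2m libraries. Each comparison that includes 6CD2m libraries is therefore a description and carries no test. The low-count filter kept 56 of the 58. The genes it removed were COLEC12, a scavenger receptor with 0 to 9 counts per library, and DLGAP1, a scaffold protein of synapses with 0 to 5 counts.

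RNA came from HT1080 cells, an established human fibrosarcoma line, in 15 libraries that form 5 groups of 3 replicates. The 6CD1m line carries the mutation HDAC6H216A in the first catalytic domain of KDAC6 and the 6CD2m line carries HDAC6H611A in its second catalytic domain. Both were given 1 μM Tubastatin A, an inhibitor of KDAC6, for 2 days. The 8CDm line carries HDAC8H143A, which inactivates KDAC8, and was given 5 μM PCI-34051, an inhibitor of KDAC8, for 2 days. WT cells stayed for 14 days on one of the inhibitors, with Tubastatin A at 1 μM and PCI-34051 at 5 μM. All 5 groups thus received an inhibitor, and the lines are missense mutants of the endogenous genes that keep making the protein. Whether a mutant line descends from 1 cell is not given in the sources used here. Between a mutant line and WT cells the line and the length of treatment change together and cannot be told apart. The 6CD1m and 6CD2m groups differ in the line alone, and either of them differs from 8CDm in line and inhibitor together. Comparisons that share a group, such as the 3 with 6CD2m or the pair with 8CDm, are not independent of each other.

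Library totals on genes ran from 10932437 to 19983699 counts. Of the 6 mesenchymal markers checked, VIM, FN1, SPARC, CD44 and LGALS1 were at 341 to 4890 CPM in all libraries, whereas S100A4 was at 0.0644 to 0.837 CPM. The epithelial, blood and endothelial markers EPCAM, CDH1, KRT19, PTPRC, CD3E, PECAM1 and CDH5 reached at most 2.85 CPM. Replicate 1 of 6CD1m, of WT on PCI-34051 and of WT on Tubastatin A stood apart from the other replicates of its group. The shift of the list and the counts of genes are therefore given with and without replicate 1 of every group. Of the 29 calls that listed genes had in the 5 tests below, 28 were kept without it, and that of THOC1 in the interaction was lost (edgeR adjusted p = 0.0015).

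Chromosome 18 is one of the smaller and more gene-poor human autosomes. As background, the RNA level of a gene often follows the number of copies of it that a cell carries, so the gain or loss of an arm or a whole chromosome tends to move many neighbouring genes by a similar amount. The DNA of these cells was not measured here. The chromosome is known in cancer for SMAD2 and SMAD4, which carry signals of the TGF-beta and BMP pathways into the nucleus, and for BCL2, an inhibitor of apoptosis. It also holds genes needed in nearly every cell, such as TYMS for thymidylate synthesis, NDC80 for chromosome attachment and NPC1 for cholesterol export from lysosomes.

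Of the 58 genes, 55 had an entry in the RefSeq promoter table (GRCh38.p14), and ZNF521, IMPA2 and RAB12 did not. Upstream sequences are shown for CYB5A, the gene without a single read in 6CD2m cells, and for GALNT1, a glycosyltransferase that starts mucin-type O-glycans. GALNT1 lay nearest to the median shift of the list in 6CD2m cells against WT among the genes with an upstream window free of annotated exons. The capitals mark a GC box (GGGCGG) or a CCAAT box, searched on both strands, so that a CCAAT box on the other strand reads ATTGG. The CYB5A sequence is chr18:74292017-74292213 on the minus strand, 197 bases that end where the annotated exons start. The GALNT1 sequence is chr18:35580672-35580921 on the plus strand, 250 bases.
CYB5A: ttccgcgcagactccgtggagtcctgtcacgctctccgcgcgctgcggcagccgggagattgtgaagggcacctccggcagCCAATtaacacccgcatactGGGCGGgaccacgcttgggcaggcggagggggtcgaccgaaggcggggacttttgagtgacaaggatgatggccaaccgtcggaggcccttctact
GALNT1: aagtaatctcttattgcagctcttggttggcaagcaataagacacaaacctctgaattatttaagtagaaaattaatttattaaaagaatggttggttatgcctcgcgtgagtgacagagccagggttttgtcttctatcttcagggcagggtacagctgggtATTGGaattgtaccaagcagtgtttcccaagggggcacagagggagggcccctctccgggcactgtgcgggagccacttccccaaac
The CYB5A sequence holds 1 GC box, 1 CCAAT box, 19 CG dinucleotides and 65% G and C bases. The GALNT1 sequence holds no GC box, 1 CCAAT box and 4 CG dinucleotides, at 47.2% G and C. Neither holds TATAAA. Across all 99 upstream windows of 250 bases that belong to the listed genes, 53.5% held a GC box against 42.6% of 35116 windows of all genes. A CCAAT box was in 27.3% against 32%, and TATAAA was in 6.06% against 10.7%. Of the 99 windows, 77.8% overlap an annotated exon of some gene, against 56.2% of the windows of all genes, so that the shares are not of sequence free of exons. These matches are letters in a window and do not show that a factor binds there.

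Most of the listed genes were lower in 6CD2m cells than in WT cells on Tubastatin A, by amounts that differed between genes. The median log2 fold change over the 56 tested genes was -0.75, a level of 59.6% of that in WT cells, with an interquartile range from -1.13 to -0.49. The median over all 19535 tested genes was -0.01. The protein-coding genes of other chromosomes had an interquartile range of similar width, from -0.36 to 0.34. Of the 56 genes, 53 were below 0 and 44 lay within 0.5 of the list's own median. The latter are 78.6% of the list, against 64.1% of the protein-coding genes of other chromosomes around their own median. This share was also above that of other chromosomes in the comparisons without 6CD2m libraries. It was 92.9% against 77.2% in 6CD1m against WT on Tubastatin A, and 69.6% against 59.4% in 8CDm against WT on PCI-34051. It was 89.3% against 75.5% in WT on Tubastatin A against WT on PCI-34051, and 76.8% against 58.6% in 6CD1m against 8CDm. The excess was thus not particular to comparisons with 6CD2m. The 3 libraries of 6CD2m were all below the 3 of WT on Tubastatin A for 50 of the 56 genes, against 26.4% of all genes, and all above for 0 against 23.6%. The counts were 50 against 37.6% and 2 against 34.3% without replicate 1 of every group. In bulk RNA, less RNA per cell and fewer cells that express a gene cannot be told apart. The list was chosen for this difference, so its size is a description of the libraries that chose it.

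The same genes were lower in 6CD2m cells than in 8CDm cells, by a median of -0.72 (interquartile range -0.88 to -0.46), and 50 of the 56 were below 0. The 6CD2m libraries were below all 8CDm libraries for 47 genes, against 26.2% of all genes, and above them for 3, against 25.4%. Without replicate 1 these were 48, against 35.5%, and 3, against 33.5%. Within 0.5 of the list's median were 75% of its genes, against 69.6% on other chromosomes. Against 6CD1m cells on the same inhibitor and for the same time, the median was -0.35 (interquartile range -0.75 to -0.15) and 46 genes were below 0. The libraries of 6CD2m were below all those of 6CD1m for 26 genes, or 46.4% of the 56, against 25.5% of all genes, and above them for 3, against 26.2%. Without replicate 1 these were 43, against 36.7%, and 5, against 33.8%. With all libraries, 66.1% of the list lay within 0.5 of its median, against 57.3% on other chromosomes. For 22 of the 56 genes the 6CD2m libraries were below every one of the 12 other libraries, against 7.83% of all genes. None was above all 12, against 9.2%. Without replicate 1, 28 were below all 8 other libraries, against 14.5%, and 0 above, against 15%.

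**Figure D1:**
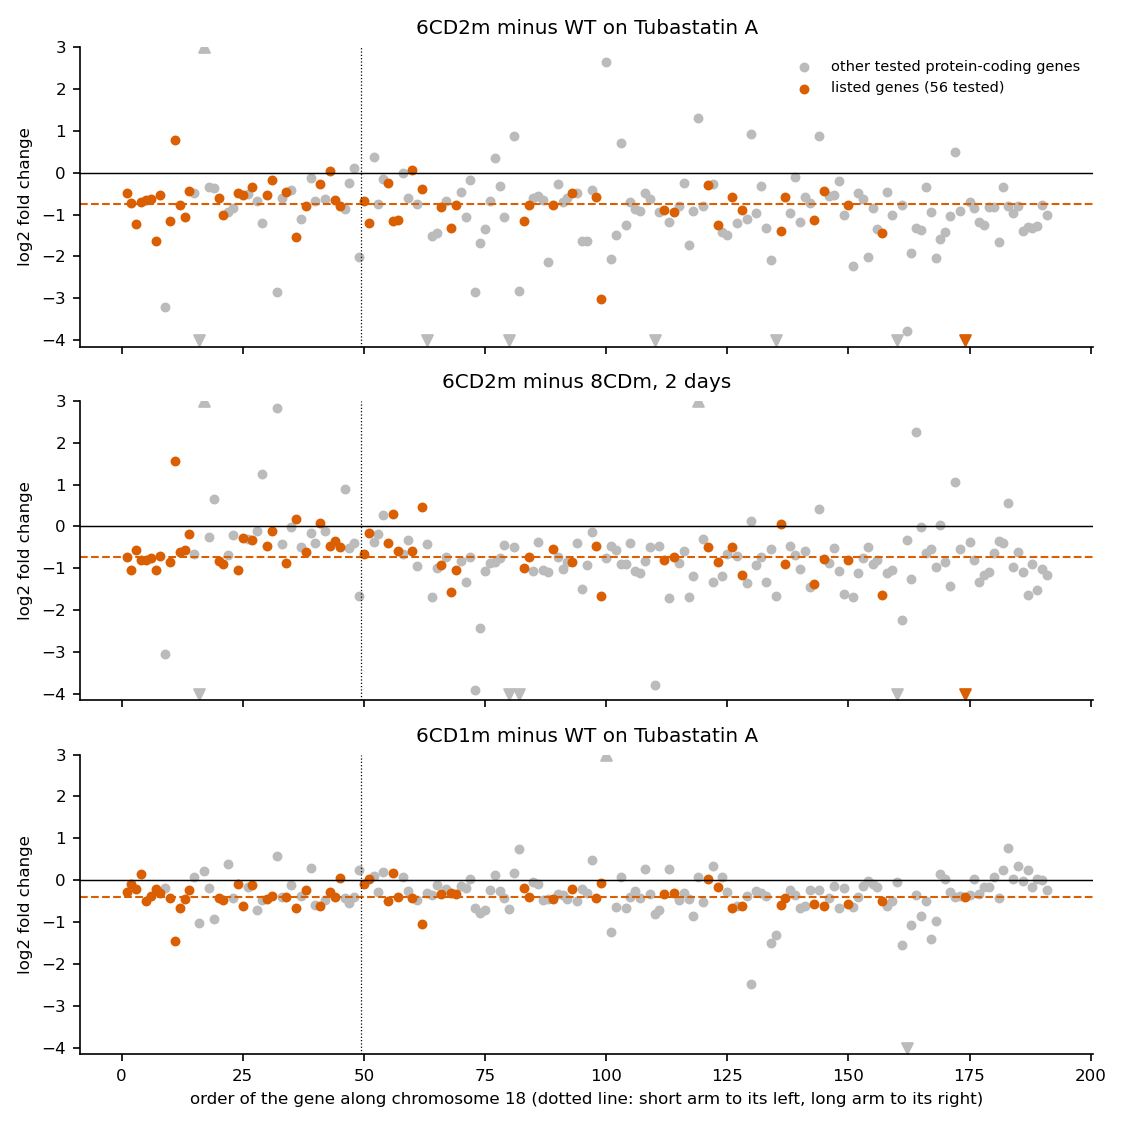
Log2 fold change (vertical axis) of the 191 tested protein-coding genes of chromosome 18 in their order along the chromosome (horizontal axis), with the 56 listed genes in orange, the 135 others in grey, and the dashed line at the median of the listed genes. Triangles stand for genes beyond the axis, CYB5A among them. The listed genes form a band around -0.75 against WT on Tubastatin A and around -0.72 against 8CDm along both arms, and a band around -0.40 in 6CD1m against WT.

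In single libraries, the median log2 level of the listed genes relative to that of all genes was -0.49, -0.39 and -0.42 in the 6CD2m libraries. It was 0.21, 0.24 and 0.21 in 8CDm cells and 0.43, 0.21 and 0.16 in WT cells on Tubastatin A. The 6CD1m libraries were at -0.29, -0.06 and 0.09, and those of WT on PCI-34051 at 0.22, -0.16 and -0.09. The levels are log2(CPM + 1), centred on each gene's mean over all libraries. The 6CD2m libraries were lowest and lay close together, while replicate 1 of 6CD1m and of WT on PCI-34051 lay furthest from its group.

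The listed genes are poorer in G and C bases than other genes. Taken from the longest transcript of each gene, the median was 41.8% against 48.2% for all tested genes. After a curve of level against GC content was taken off each library, the 6CD2m libraries were at -0.56, -0.48 and -0.53 and the 12 other libraries ran from -0.10 to 0.28. The 6CD2m libraries were thus below all others with and without the correction, and the replicate 1 libraries moved closer to the rest of their groups. The shift of the list relative to all genes was -0.74 against WT on Tubastatin A, -0.71 against 8CDm and -0.30 against 6CD1m before this correction. After it the values were -0.80, -0.71 and -0.54. Without replicate 1 of every group they were -0.60, -0.65 and -0.45.

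**Figure D2:**
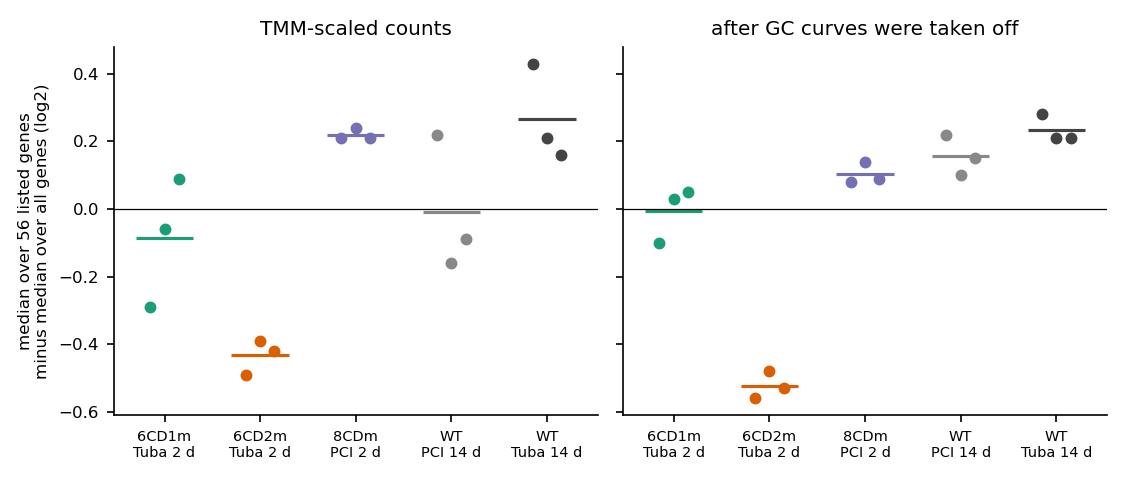
Median log2 level of the 56 listed genes minus the median of all genes (vertical axis) in each of the 15 libraries, 1 point a library and a line at the group mean, before (left) and after (right) the GC curve of each library was taken off. The 3 points of 6CD2m are below all 12 others on both sides, from -0.49 to -0.39 on the left and from -0.56 to -0.48 on the right.

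Genes of chromosome 18 that were not listed were also lower. The list was chosen because chromosome 18 genes were lower in these same 6CD2m libraries, so the values here are a description and no separate evidence. The 135 other tested protein-coding genes of the chromosome had a median of -0.85 in 6CD2m cells against WT on Tubastatin A (interquartile range -1.34 to -0.49). Against 8CDm it was -0.75 (interquartile range -1.10 to -0.40). With listed and other genes together, chromosome 18 had the lowest median of the 22 autosomes and X in all 3 comparisons of 6CD2m. Its median was -0.79 against WT on Tubastatin A, where the next lowest, chromosome 13, was at -0.27. It was -0.73 against 8CDm, where the next was chromosome 2 at -0.24, and -0.51 against 6CD1m, where the next was chromosome 20 at -0.12. The comparisons that hold no 6CD2m library placed chromosome 18 differently. It was lowest in 6CD1m against WT at -0.33, next to chromosome 5 at -0.23, and second lowest in 6CD1m against 8CDm at -0.23. It was among the higher chromosomes in 8CDm against WT, at 0.12, and in WT on Tubastatin A against WT on PCI-34051, at 0.21.

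**Figure D3:**
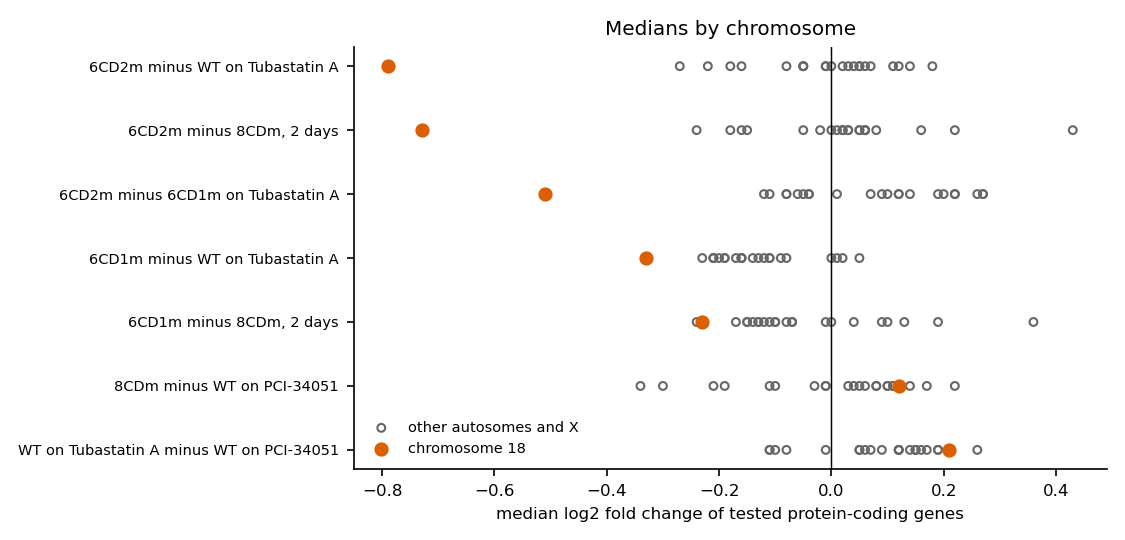
Median log2 fold change of the tested protein-coding genes (horizontal axis) of each chromosome, 1 row a comparison, with chromosome 18 filled in orange and the other autosomes and X as open circles. Chromosome 18 stands by itself at -0.79, -0.73 and -0.51 in the rows of 6CD2m and lies at the edge of or within the other chromosomes in the remaining rows.

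Both arms were lower. Against WT on Tubastatin A, the median of the listed genes was -0.63 on the short arm and -0.83 on the long arm. Against 8CDm it was -0.61 and -0.77, and against 6CD1m -0.23 and -0.50. The other tested protein-coding genes, 22 on the short arm and 113 on the long arm, differed more between the arms against 8CDm. Their medians there were -0.28 and -0.85. They were -0.64 and -0.92 against WT on Tubastatin A and -0.38 and -0.61 against 6CD1m. Over consecutive stretches of 10 Mb with listed and other genes together, the median against WT on Tubastatin A ran from -0.62 to -1.34, and that against 8CDm from -0.40 to -1.15. No stretch had a median at or above 0 in these comparisons.

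Set against the rest of the list, 3 listed genes lay more than 1 log2 unit from the list's median in 6CD2m against WT on Tubastatin A. CYB5A and SETBP1 were below it and MYOM1 was above it. CYB5A encodes cytochrome b5, an electron carrier of the endoplasmic reticulum used in fatty acid desaturation and steroid synthesis. Its counts were 0, 0 and 0 in the 6CD2m libraries and 57 to 155 in each of the 12 others. In CPM, the levels were 4.80, 6.46 and 6.48 in 6CD1m, 5.18, 4.55 and 4.46 in 8CDm, 5.92, 5.69 and 4.83 in WT on PCI-34051, and 8.57, 7.65 and 7.39 in WT on Tubastatin A. The groups did not overlap, and a fitted fold change has no meaning against 0. With 3 counts as the limit that a count of 0 allows in each 6CD2m library, CYB5A was at least 44.3-fold higher in WT on Tubastatin A, at least 33.3-fold higher in 6CD1m and at least 26.6-fold higher in 8CDm. With CYB5A set at its bound, the median of the list remained -0.75 against WT on Tubastatin A. It could not move, because CYB5A is the lowest listed gene with either value.

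The genes next to CYB5A were read in 6CD2m cells. They are named for their place alone and after their values were seen. TIMM21, a subunit of the mitochondrial import machinery and the nearest tested protein-coding gene towards the centromere, was at 11.7, 11.9 and 10.3 CPM in 6CD2m and 24.4, 22.6 and 17.0 in WT on Tubastatin A. CNDP2, a dipeptidase and the nearest such gene towards the telomere, was at 76.2, 72.8 and 67.7 CPM in 6CD2m and 120, 114 and 116 in WT on Tubastatin A. Their log2 fold changes were -0.92 and -0.69, within the range of the rest of the chromosome.

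SETBP1 encodes a nuclear protein that binds SET, an inhibitor of the phosphatase PP2A. It was at 2.66, 1.42 and 4.06 CPM in 6CD2m, and at 21.0, 19.2 and 22.6 in 6CD1m, 22.1, 20.4 and 23 in WT on Tubastatin A and 22.3, 18.2 and 18.7 in WT on PCI-34051. In 8CDm it was at 7.80, 7.53 and 10.4. The lowest group was 6CD2m, followed by 8CDm, and neither overlapped the remaining 3. The log2 fold changes of 6CD2m were -3.01 ± 0.25 (SE) against WT on Tubastatin A, -2.95 ± 0.25 against 6CD1m and -1.67 ± 0.25 against 8CDm.

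MYOM1, a protein of the M-band of striated muscle, was scarcely read in these cells. It was at 2.01, 1.17 and 1.78 CPM (34, 23 and 32 counts) in 6CD2m, at 0.505, 0.211 and 0.349 in 6CD1m, and at 1.22, 1.04 and 0.635 in WT on Tubastatin A. The 6CD2m libraries overlapped those of WT on Tubastatin A and lay above those of 6CD1m, with a log2 fold change of 2.21 ± 0.51 (SE).

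NDC80, BCL2, IMPA2 and TCF4 were next furthest below. NDC80 encodes the kinetochore protein that holds microtubules during mitosis. Its level was 9.71, 11.7 and 11.1 CPM in 6CD2m against 40.6, 31.1 and 28.3 in WT on Tubastatin A and 22.7, 29.3 and 34.7 in 6CD1m. The log2 fold changes were -1.62 ± 0.18 (SE) and -1.42 ± 0.18. BCL2, the inhibitor of apoptosis, was at 17.5, 17.6 and 15.4 CPM in 6CD2m, where the 4 other groups ran from 28.6 to 52.9. Its log2 fold changes were -1.43 ± 0.10 against WT on Tubastatin A and -1.64 ± 0.10 against 8CDm.

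IMPA2, an inositol monophosphatase, was at 3.2, 3.5 and 2 CPM in 6CD2m and 2.45, 2.65 and 2.63 in 8CDm, and these groups overlapped. In WT cells it was at 8.46, 7.46 and 9.36 on Tubastatin A and 11.6, 9.48 and 10.8 on PCI-34051. Its log2 fold change in 6CD2m was -1.54 ± 0.24 (SE) against WT and 0.17 ± 0.26 against 8CDm. GATA6, a zinc-finger transcription factor of endoderm and heart, was also low in both groups, although its 6CD2m libraries lay above those of 8CDm. It was at 6.75, 6.38 and 6.12 CPM in 6CD2m and 5.64, 5.36 and 4.62 in 8CDm, against 13.5, 15.9 and 13.7 in WT on Tubastatin A and 27.3, 26.9 and 30.5 in WT on PCI-34051. Both mutant groups were below every library of the WT groups. TCF4, a basic helix-loop-helix transcription factor, was at 15.5, 15.6 and 14.7 CPM in 6CD2m and 15, 14.1 and 15.2 in 8CDm, and the log2 fold change between them was 0.05 ± 0.13.

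ZNF521, a zinc-finger protein of progenitor cells, and NEDD4L, a ubiquitin ligase that acts on SMADs and ion channels, were among the lowest against 8CDm. ZNF521 was at 23.3, 23.3 and 25.8 CPM in 6CD2m and 75.9, 67.2 and 71.9 in 8CDm, a log2 fold change of -1.57 ± 0.10 (SE). NEDD4L was at 185, 199 and 200 CPM in 6CD2m and 503, 512 and 511 in 8CDm, a log2 fold change of -1.38 ± 0.12. The 3 libraries of 6CD2m were also below every other library for both genes. GREB1L and MBD1 were among the lowest against 6CD1m. MBD1, which binds methylated DNA, was at 69.6, 75.3 and 65.0 CPM in 6CD2m and 171, 139 and 133 in 6CD1m. GREB1L, a gene needed for kidney development, was at 9.59, 13.2 and 9.84 CPM in 6CD2m and 25.8, 24.6 and 25.7 in 6CD1m. It was as low in 8CDm, at 12.4, 12.5 and 11.7 CPM, which overlapped 6CD2m.

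Other listed genes kept a level near that of WT cells on Tubastatin A. RIOK3, an atypical kinase linked to maturation of the small ribosomal subunit, was at 44.8, 45.5 and 46.1 CPM in 6CD2m against 50.6, 42.6 and 37.8 in WT on Tubastatin A, and the groups overlapped. PTPN2, a phosphatase of the JAK-STAT pathway, was at 20.2, 19.4 and 24.1 CPM against 23.8, 17.6 and 20.4. The log2 fold changes were 0.06 ± 0.15 (SE) and 0.04 ± 0.18, and neither sign held in all settings. PSMG2, a chaperone of proteasome assembly, was at 17.1, 18.2 and 15.5 CPM against 26.8, 18.4 and 15.7 in WT, with replicate 1 of WT the highest. Without that library its log2 fold change was 0.03, against -0.26 ± 0.30 with it. NAPG, which takes part in vesicle fusion, and MIB1, a ubiquitin ligase for Notch ligands, had log2 fold changes of -0.18 ± 0.16 and -0.24 ± 0.17, which were -0.07 and 0.00 without replicate 1 of every group.

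NPC1 behaved in its own way. It was at 376, 444 and 436 CPM in 6CD2m, below the 625, 503 and 511 of WT on Tubastatin A, yet above the 223, 280 and 292 of 6CD1m and the 293, 302 and 321 of 8CDm. Its log2 fold changes in 6CD2m were -0.38 against WT, 0.66 ± 0.13 (SE) against 6CD1m and 0.46 ± 0.13 against 8CDm.

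**Figure D4:**
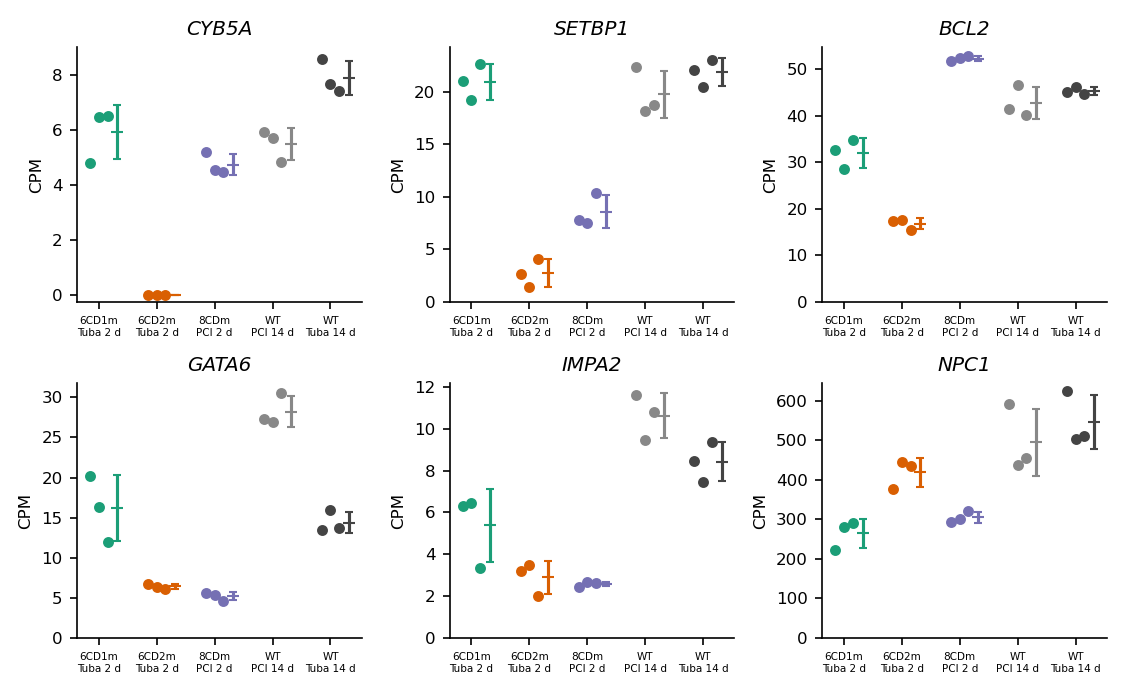
Levels in CPM (vertical axes, linear) of CYB5A, SETBP1, BCL2, GATA6, IMPA2 and NPC1 in each library, 1 point a library, with the mean and SD of the 3 replicates beside them. CYB5A has no count in 6CD2m, SETBP1, GATA6 and IMPA2 are low in both 6CD2m and 8CDm, BCL2 is lowest in 6CD2m, and NPC1 is lowest in 6CD1m and 8CDm.

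Many of the listed genes encode 1 subunit of a complex or 1 of a pair of close relatives, whose other parts lie on other chromosomes. For 19 of them, 52 such partners were named from general knowledge, and 50 passed the filter. In 6CD2m against WT on Tubastatin A, 18 of the 19 listed genes were below the median of their own partners. The median was -0.65 for the 19 genes and -0.02 for their partners, and 46 of the 50 partner genes were above the gene they go with. In 6CD2m against 8CDm the corresponding values were 18 of 19 genes, -0.67, 0.08 and 47 of 50. Against 6CD1m, 14 of 19 were below their partners. The list was chosen for being lower in 6CD2m libraries and the partners were not. The counts in comparisons with 6CD2m are therefore a description and no separate evidence.

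SEH1L, a subunit of the nuclear pore Y complex, had a log2 fold change of -0.65 against WT on Tubastatin A. Its 7 partners in the complex ran from -0.57 to 0.34. SS18, a subunit of BAF chromatin remodelling complexes, was at -0.78 with 5 partners between -0.22 and 0.51. RBBP8, also called CtIP, which starts the resection of DNA breaks, was at -1.13 with 2 tested partners of the MRN complex at 0.23 and 0.91. ROCK1, a kinase that drives actomyosin contraction, was at -0.67 and its relative ROCK2 was at 0.09.

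A few genes moved together with their partners. NDC80 was at -1.62 and the other 3 subunits of its complex, NUF2, SPC24 and SPC25, ran from -1.53 to -1.04. CEP192 was at -0.79, and its partners PLK4 and CEP152 were at -0.70 and -0.55. SMAD2 was at -0.90 and SMAD3 at -0.94, the 1 case of the 19 in which the listed gene was not below the median of its partners. Single partners below their gene were also PSMG3 at -1.09 (PSMG2 at -0.26), THOC3 at -0.76 (THOC1 at -0.72) and ELP6 at -0.51 (ELP2 at -0.49). In 6CD1m against WT on Tubastatin A, 15 of the 19 were below their partners with medians of -0.33 and -0.14. In 8CDm against WT on PCI-34051 the number was 7, and in WT on Tubastatin A against WT on PCI-34051 it was 8.

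**Figure D5:**
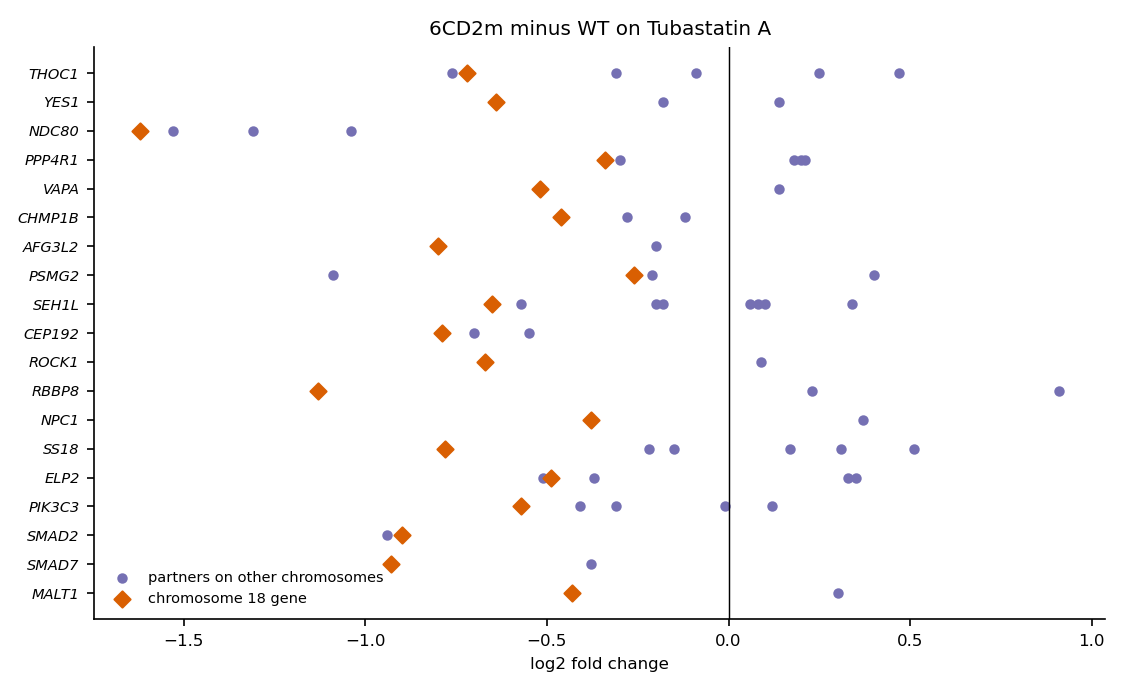
Log2 fold change in 6CD2m against WT on Tubastatin A (horizontal axis) of 19 listed genes (diamonds, 1 row a gene) and of their partners encoded on other chromosomes (circles). In 18 of the 19 rows the diamond is below the median of the circles, and in the rows of NDC80, CEP192 and SMAD2 the circles are also low.

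By function, every group of listed genes had a negative median in 6CD2m against WT on Tubastatin A, from -1.18 for transcription and chromatin (10 genes) to -0.47 for kinases and phosphatases (4 genes). In the TGF-beta and BMP group the median of 6 genes was -0.89. SMAD2 was at 89.1, 82.4 and 92.1 CPM in 6CD2m and 185, 160 and 146 in WT on Tubastatin A. SMAD4, the common partner of the receptor-driven SMADs, was at 68.6, 76.8 and 74.3 CPM against 160, 123 and 123, and the groups of both genes did not overlap. The inhibitory SMAD7 was at 14.2, 10.6 and 13.0 CPM against 22.2, 23.5 and 26.1. TGIF1, a repressor in the same pathway, shifted least of the group, at -0.45.

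Genes near the list's median came from unrelated functions. MYL12A, a regulatory light chain of non-muscle myosin, was at 124, 140 and 138 CPM in 6CD2m and 271, 209 and 206 in WT on Tubastatin A, a log2 fold change of -0.77 ± 0.21 (SE). PMAIP1, or NOXA, which promotes apoptosis, was at 22.9, 22 and 21.8 CPM against 41.3, 35.5 and 37.2. THOC1, a subunit of the THO complex for RNA export, was at 16.6, 16.6 and 15 CPM against 26.9, 26.7 and 25.9. GALNT1, whose upstream sequence is shown above, was at 34.2, 41.3 and 39.8 CPM against 80.0, 59.7 and 57.0. In all 4 genes the 6CD2m libraries were below those of WT on Tubastatin A.

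Other listed genes are given by function. The median was -0.99 for the 6 metabolic enzymes and -0.52 for the 9 genes of membrane traffic and lipids. TYMS, thymidylate synthase, was at 52.5, 56.7 and 54.7 CPM in 6CD2m and 144, 120 and 118 in WT on Tubastatin A, a log2 fold change of -1.22, below the list's interquartile range. MYL12B, the other regulatory light chain, was at 147, 150 and 152 CPM against 361, 293 and 276, at -1.05. CEP192, a scaffold of the centrosome, was at 66.0, 58.9 and 58.2 CPM against 112, 108 and 97.6. In protein turnover, AFG3L2, a mitochondrial protease, was at 56.1, 63.0 and 63.2 CPM against 117, 106 and 93.5. None of these groups overlapped. VAPA, which tethers the endoplasmic reticulum to other membranes, was at 80.3, 81.1 and 89.1 CPM against 137, 113 and 110. PTPRM, a receptor phosphatase of cell contacts, was at 91.3, 96.3 and 94.7 CPM against 148, 138 and 145, and ELP2, a subunit of the tRNA-modifying Elongator complex, at 73.8, 71.9 and 73.7 against 119, 99.1 and 90.5.

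Per kilobase of exon and averaged over all libraries, levels ran over a wide range. MYL12B was highest at 115 CPM per kb, followed by MYL12A at 52.7, NPC1 at 40.2 and TYMS at 36.5. The lowest were CYB5A at 0.515, MYOM1 at 0.142, COLEC12 at 0.0208 and DLGAP1 at 0.00578 CPM per kb.

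The 4 comparisons without 6CD2m libraries were tested across all 19535 genes (edgeR, quasi-likelihood, Benjamini-Hochberg adjusted p under a false discovery rate of 0.001). The 6CD1m line carries a mutation in the other catalytic domain of the same enzyme. In 6CD1m against WT cells on Tubastatin A, the list's median was -0.40 (interquartile range -0.49 to -0.21), and 51 of 56 genes were below 0, where the median of all genes was -0.01. The 6CD1m libraries were below all WT libraries for 28 of the 56 genes against 17.2% of all genes, and above for 0 against 13.8%. Without replicate 1 these were 30, against 25.6%, and 4, against 21.5%. Only 1 of the 56 genes passed the test, against 0.793% of all genes. It was lower, against 0.522% of all genes that were, and 0 were higher, against 0.271%. The size of the shift moved with the libraries and with GC content. Relative to all genes it was -0.39, and it was -0.23 after the GC correction and -0.16 without replicate 1 of every group. It ran from -0.47 (without replicate 3 of 6CD1m) to -0.22 (without replicate 1 of 6CD1m) when 1 library was left out. Their part in the shift was not tested.

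The gene that passed was NPC1. Its levels of 223, 280 and 292 CPM in 6CD1m were below the 625, 503 and 511 of WT on Tubastatin A, a log2 fold change of -1.04 ± 0.14 (SE, edgeR adjusted p = 0.00028). Its call was lost (edgeR adjusted p up to 0.0024) when any 1 of the 6 libraries other than replicate 3 of 6CD1m was left out. NPC2, which hands cholesterol to NPC1 in the lysosome, was at -0.61 in the same comparison.

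In 8CDm against WT on PCI-34051 the list's median was 0.15 (interquartile range -0.06 to 0.53), above the -0.04 of all genes, and 40 of 56 genes were above 0. Relative to all genes the shift was 0.19. It was 0.04 after the GC correction, 0.37 without replicate 1 of every group, and from 0.10 (without replicate 2 of WT) to 0.38 (without replicate 1 of WT) when 1 library was left out. Of the 56 genes, 9 passed the test, against 11% of all genes. There were 2 higher genes, against 4.69% of all genes, and 7 lower ones, against 6.27%. This balance turned with the setting. There were 10 higher and 7 lower genes with DESeq2, where 20.5% of all genes passed, 19 and 10 at a false discovery rate of 0.05 (36.1%), 7 and 5 without replicate 1 of WT on PCI-34051 (12.8%), and 22 and 8 without replicate 1 of every group (28.9%). The libraries did not overlap for 21 higher genes, against 23.8% of all genes, and for 11 lower ones, against 24.4%. Without replicate 1 these were 42, against 36.9%, and 14, against 40.2%. The largest was GATA6, at 5.64, 5.36 and 4.62 CPM in 8CDm and 27.3, 26.9 and 30.5 in WT on PCI-34051, with a log2 fold change of -2.44 ± 0.17 (SE, edgeR adjusted p = 6e-08). IMPA2 fell by 2.04 ± 0.25 on the log2 scale (edgeR adjusted p = 1.8e-05), and its groups did not overlap. Both calls held in every setting tried.

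The other lower genes were SETBP1 at -1.21, SMAD7 at -0.81, GREB1L at -0.77, NPC1 at -0.70 and MBD1 at -0.59. SMAD7 was at 20.2, 22.1 and 20.1 CPM in 8CDm and 37.7, 38.2 and 33.5 in WT on PCI-34051, and its call was lost after the GC correction (log2 fold change -0.51, edgeR adjusted p = 0.0023) and without replicate 1 or 3 of 8CDm or replicate 2 of WT. NPC1 was at 293, 302 and 321 CPM against 593, 437 and 456. For NPC1 and SETBP1 the call was lost when any 1 library was left out, and that of NPC1 also after the GC correction (log2 fold change -0.61, edgeR adjusted p = 0.0043). It was lost for GREB1L and MBD1 when any 1 was, other than replicate 1 of WT on PCI-34051. The higher genes were MYO5B, a myosin motor of recycling endosomes, and THOC1. MYO5B was at 47.0, 49.0 and 45.6 CPM against 31.8, 24.6 and 26.2, a log2 fold change of 0.78, and its call was lost in the same way. THOC1 was at 32.5, 33.9 and 32.9 CPM against 20.5, 20.1 and 22.7, a log2 fold change of 0.65, which was 0.25 (edgeR adjusted p = 0.11) after the GC correction.

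In WT cells on Tubastatin A against WT cells on PCI-34051 the list's median was 0.25 (interquartile range 0.08 to 0.46). Relative to all genes the shift was 0.24. It was 0.06 after the GC correction, 0.27 without replicate 1 of every group, and from 0.15 (without replicate 1 of WT on Tubastatin A or replicate 2 of WT on PCI-34051) to 0.37 (without replicate 1 of WT on PCI-34051) when 1 library was left out. The libraries did not overlap for 18 genes that were higher on Tubastatin A, against 13.8% of all genes, and for 6 lower ones, against 12.1%. Without replicate 1 these were 40, against 36.5%, and 9, against 30.3%. Only TCF4 passed the test, against 0.42% of all genes, or 0.333% that were higher and 0.087% that were lower. When replicate 1 of every group was left out 15 passed, 13 higher and 2 lower, against 11.4% of all genes. TCF4 was at 45.3, 39.4 and 36.2 CPM on Tubastatin A and 23.5, 21.1 and 18 on PCI-34051, with a log2 fold change of 0.95 ± 0.13 (SE, edgeR adjusted p = 0.00075). Samples with the same replicate number deviated together in this comparison, and with the replicate number as a block the edgeR adjusted p was 0.0038 and TCF4 no longer passed. The call was also lost when any 1 library was left out other than replicate 1 of WT on PCI-34051.

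In 6CD1m against 8CDm, which differ in line and inhibitor, the list's median was -0.32 (interquartile range -0.59 to -0.02) and 42 of 56 genes were below 0. Of the 56 genes, 12 passed, against 11.1% of all genes, with 4 higher, against 5.99%, and 8 lower, against 5.07%. The 6CD1m libraries were below all those of 8CDm for 28 genes, against 25.7% of all genes, and above for 7, against 25%. Without replicate 1 these were 32, against 34.3%, and 12, against 35.6%. The higher genes were GATA6, SETBP1, GREB1L and TCF4, which are 4 of the 10 listed genes of transcription and chromatin. That group had a median of -0.13, with ANKRD12 lowest at -0.63, and 1 of its genes, ZNF521, passed as lower. GATA6 was at 20.2, 16.3 and 12 CPM in 6CD1m, above the 5.64, 5.36 and 4.62 of 8CDm, with a log2 fold change of 1.63 ± 0.17 (SE, edgeR adjusted p = 3.6e-06). SETBP1 was 1.29 higher, GREB1L 1.05 and TCF4 0.86 on the log2 scale.

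The lower genes were RIOK3, MALT1, SMAD4, NEDD4L, CHMP1B, BCL2, PTPRM and ZNF521. RIOK3 was at 28.0, 33.2 and 36.5 CPM in 6CD1m and 65.6, 68.6 and 69.9 in 8CDm, a log2 fold change of -1.06 ± 0.15 (SE, edgeR adjusted p = 8.4e-05). MALT1, a protease of NF-kappaB signalling in lymphocytes, was at 26.3, 35.0 and 35.8 CPM against 65.4, 63.8 and 59.8, a log2 fold change of -0.96 ± 0.14. SMAD4 was at -0.89 and NEDD4L at -0.81, as was CHMP1B, a component of the ESCRT-III membrane machinery. BCL2 was at -0.71, PTPRM at -0.63 and ZNF521 at -0.55. When 1 library was left out, the calls of SMAD4 and ZNF521 were lost unless it was replicate 3 of 6CD1m, that of SETBP1 unless it was replicate 1 of 6CD1m, and that of TCF4 unless it was replicate 1 or 2 of 6CD1m. Without replicate 1 of every group, 21 genes passed, 6 higher and 15 lower, against 19% of all genes. The shift of the list relative to all genes was -0.37. It was -0.16 after the GC correction, -0.23 without replicate 1 of every group, and from -0.52 (without replicate 3 of 6CD1m) to -0.22 (without replicate 1 of 6CD1m) when 1 library was left out.

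The difference between the line differences of 6CD1m (against WT on Tubastatin A) and of 8CDm (against WT on PCI-34051) was tested as an interaction. Of the 56 genes, 6 passed, against 5.42% of all genes, with GATA6 higher, against 2.59%, and 5 lower, against 2.84%. With replicate 1 of every group left out, 22 passed, 2 higher and 20 lower, against 18.4% of all genes.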

How the data were processed

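RNA was rRNA-depleted and sequenced in 15 libraries. The authors deposited expected counts per gene (estimated read counts that need not be whole, 21.8% of the nonzero values), without normalization. The submitters' processing notes name Trimmomatic 0.39, Bowtie2 2.4.5, RSEM 1.3.3, DESeq2 1.38.2 and GRCh38. The annotation release is not given in the sources used here. Counts were rounded. Groups and replicate numbers came from the labels, and no per-sample column was left unassigned.

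Positions and exon lengths came from GENCODE 29 on GRCh38, which matched 57055 of 60675 genes. GC content was known for 99.2% of tested genes. In R 4.3.3 with edgeR 4.0.16, the low-count filter kept 19535 genes, libraries were scaled by TMM, and 1 model with a mean per group was fitted to all libraries (biological coefficient of variation 16.4%). CPM is relative to the TMM-scaled library size. Groups were compared in pairs by quasi-likelihood, and p-values were adjusted by Benjamini-Hochberg at a false discovery rate of 0.001, as in the study. Figures were drawn in Python 3.11.15 with matplotlib 3.10.9.

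The members, their functional groups and the partner lists were chosen with earlier results of these data known, so no p-value was adjusted over the list. Genes named are those past the threshold in a tested comparison, the 6 furthest above, the 6 furthest below and the 4 nearest to the list's median in each comparison with 6CD2m, the members of highest level in each functional group, those that failed the filter, and partners beside them. Not each of these is printed with its values, and some other listed genes are named as examples of a function. Alternatives were DESeq2 1.42.0, scaling by the upper quartile, TMM with mitochondrial and small RNA genes left out, other filters, only the libraries compared, a replicate block, GC offsets, and each library left out. The fit was tested on simulated data.

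The labels give replicate numbers to all groups. Same-numbered samples deviated together most (correlations 0.68, 0.357 and 0.307) in WT on Tubastatin A and WT on PCI-34051. In 6CD2m and 6CD1m the correlations were 0.328, 0.0845 and 0.123. They were negative in 6CD1m and WT on Tubastatin A, at -0.605, -0.165 and -0.454. The remaining comparisons had means from -0.239 to 0.111. The p-values measure the spread between the libraries of these groups.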

Additional observations from a re-analysis of the deposited data

Results flagged for a closer look

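For 6 listed genes the difference between 6CD1m and WT cells on Tubastatin A was not the same as that between 8CDm and WT cells on PCI-34051. The difference itself was tested with edgeR's quasi-likelihood test of the interaction at a false discovery rate of 0.001. Line, inhibitor and length of treatment change together here and cannot be told apart.

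GATA6 had an interaction of 2.60 ± 0.23 on the log2 scale (SE, edgeR adjusted p = 1.6e-06), with log2 fold changes of 0.17 in 6CD1m and -2.44 in 8CDm. Its call held in every setting tried. For the other 5 genes the value was positive in 8CDm and negative in 6CD1m. NEDD4L had an interaction of -1.15 ± 0.16 (edgeR adjusted p = 0.00015), from -0.56 in 6CD1m and 0.58 in 8CDm, and this call also held in every setting. MALT1 was at -1.24, and its call was lost when 1 library was left out unless this was replicate 1 or 3 of 6CD1m, replicate 1 of WT on PCI-34051 or replicate 2 or 3 of WT on Tubastatin A. The MALT1 call was also lost with the replicate block (edgeR adjusted p = 0.0018), with GC offsets and the block, and in the fit on only the libraries compared. BCL2 was at -0.80, and its call was lost when 1 library was left out unless this was replicate 3 of 6CD1m or replicate 1 or 2 of WT on PCI-34051. It was also lost after the GC correction (-0.63, edgeR adjusted p = 0.0043), with upper-quartile scaling, with either other filter, with the replicate block and in the fit on only the libraries compared. PMAIP1 was at -1.09, which was -0.40 (edgeR adjusted p = 0.15) after the GC correction. Its call was also lost without replicate 2 or 3 of 8CDm or replicate 3 of WT on PCI-34051, and in the fit on only the libraries compared. THOC1 was at -0.73, which was -0.13 (edgeR adjusted p = 0.56) after the GC correction, and its call was lost without any 1 library other than replicate 3 of 6CD1m. The THOC1 call was also lost with upper-quartile scaling, with either other filter, with the replicate block and in the fit on only the libraries compared.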

How the results depend on the processing

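The shift of the list relative to all genes kept its direction in every alternative fit, in all 7 comparisons. The direction was not firm in 8CDm against WT on PCI-34051 or in WT on Tubastatin A against WT on PCI-34051. After the GC curves were taken off, the library medians were 0.08, 0.14 and 0.09 in 8CDm and 0.22, 0.10 and 0.15 in WT on PCI-34051, and they overlapped. Those of WT on Tubastatin A were 0.28, 0.21 and 0.21 and also overlapped those of WT on PCI-34051. Under GC offsets, with or without the replicate block, the shift was -0.54 in 6CD2m against 6CD1m (-0.30 as reported) and -0.16 in 6CD1m against 8CDm (-0.37). Without replicate 1 of all groups, an alternative chosen after seeing the data, it was -0.65 in 6CD2m against 8CDm (-0.71). Leaving out 1 library gave -0.51 to -0.16 in 6CD2m against 6CD1m and -0.75 to -0.67 in 6CD2m against 8CDm. Upper-quartile scaling moved the median of all genes by 0.11 in 6CD1m against WT, by 0.16 in the interaction, and by at most 0.09 elsewhere. The causes were not tested.

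Counts of listed genes past the threshold moved more. In the order 6CD1m against WT, 8CDm against WT, WT against WT, 6CD1m against 8CDm and the interaction, they were 1, 9, 1, 12 and 6 as reported, where 0.793%, 11%, 0.42%, 11.1% and 5.42% of all genes passed. DESeq2 gave 5, 17, 5, 19 and 17 (3.17%, 20.5%, 3.79%, 19.3% and 15.8% of all genes). A false discovery rate of 0.05 gave 12, 29, 10, 28 and 34 (9.4%, 36.1%, 9.48%, 37.7% and 36.9%). Fits on only the libraries compared gave 0, 2, 0, 6 and 2 (0.052%, 4.69%, 0.00579%, 5.06% and 2.97%). With the replicate block, 0, 0 and 3 passed in 6CD1m against WT, WT against WT and the interaction (0.389%, 0.138% and 2.88%), and 0, 0 and 2 with GC offsets as well (0.727%, 0.353% and 3.8%). Same-numbered samples deviated together most in WT against WT. Under GC offsets alone WT against WT gave 2 (1.01%). With no filter, 8CDm against WT, WT against WT and the interaction gave 15, 2 and 11 (8.5%, 0.898% and 7.23%). Without replicate 1 of all groups, 8CDm against WT, WT against WT, 6CD1m against 8CDm and the interaction gave 30, 15, 21 and 22 (28.9%, 11.4%, 19% and 18.4%). Leaving out 1 library gave 0 to 1, 3 to 12, 0 to 1, 8 to 12 and 2 to 12, in that order. Without replicate 1 of WT on PCI-34051 the interaction gave 12 (11.7%).

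Of the genes named in comparisons with 6CD2m, signs changed where values were near 0. In 6CD2m against WT on Tubastatin A, PTPN2 was at -0.02 under GC offsets with or without the block, and the fits that left out libraries gave -0.06 (without 6CD2m replicate 3) to 0.21 (without replicate 1 of all groups). RIOK3 ran from -0.01 (without replicate 3 of WT) to 0.22 (without replicate 1 of WT), and PSMG2 from -0.39 (without replicate 3 of WT) to 0.03 (without replicate 1 of WT), with 0.00 without replicate 1 of all groups. MIB1 in 6CD2m against 6CD1m was at -0.06 under GC offsets with or without the block. Depth limits the values of CYB5A, MYOM1, COLEC12 and DLGAP1. The SE values come from the fit and include the spread between libraries of a group. The bound for CYB5A covers counting error only.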
